A study of Mus musculus with 16 samples.

Results

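Glutamate receptors and the proteins that hold them in the postsynaptic density were followed as a set of 43 listed genes in the hippocampus of 12-month-old male mice. The list holds AMPA, NMDA, kainate and metabotropic glutamate receptors, auxiliary subunits, scaffold proteins, the subunits of calcium/calmodulin kinase II, neuroligins and a neuronal glutamate transporter. Each gene was read from the array probe set that carries its symbol alone and has the highest mean over the arrays. Such a probe set was found for 41 of the 43 genes, among 18193 genes read this way; Grin1 and Shank2 were not analysed here. Of the 41, 38 passed the filter on low values, a log2 value over 4 on at least 4 arrays, as did 11464 genes in all. The members that did not pass were Grin2a, between 2.10 and 2.96 on the 16 arrays, Shank1, between 2.13 and 2.56, and Cacng8, between 2.63 and 4.63 with its highest value on AβPP antisense 4.

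Each Affymetrix array carried RNA from the hippocampus of 1 mouse, and 16 mice formed 4 groups of 4. Untreated SAMP8 mice belong to a senescence-accelerated strain with memory deficits at 12 months. The untreated Control group consisted of mice from a 50% backcross of SAMP8 to CD-1, without those deficits, so that SAMP8 genome is shared by every group. Further SAMP8 mice received an intravenous antisense oligonucleotide, either AβPP antisense, directed at the amyloid precursor protein, or Random antisense, its comparison oligonucleotide. The design asks how the strains differ and what AβPP antisense does in SAMP8 hippocampus; no vehicle-injected group is among these arrays, and untreated SAMP8 is the shared baseline of several comparisons. Values are log2 expression values, and the number of arrays limits the precision of each comparison.

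Glutamate released at an excitatory synapse opens AMPA receptors, which carry most of the fast current, and NMDA receptors, which admit calcium when release coincides with depolarisation. Calcium activates calcium/calmodulin kinase II, and the receptors are held opposite the release site by membrane-associated guanylate kinases, their associated proteins, Shank and Homer. In the hippocampus this machinery underlies long-term potentiation, the strengthening of synapses studied as a cellular basis of memory.

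Markers of the labelled tissue were present: all 8 dentate granule cell and all 8 pyramidal cell markers passed the filter. So did all 8 thalamus markers, 7 of 9 striatum markers and 8 of 10 choroid plexus markers, so passing does not single out the hippocampus. Some arrays stood apart. Each list was given a score per array, as the median log2 deviation of its genes from their 16-array means. For the 7 leukocyte markers that passed, of 8 listed, it was 4.79 on Control 4, against -0.86 to 0.30 on the others. Their mean level was 6.82 to 12.46 in Control, 7.37 to 7.49 in untreated SAMP8, 7.02 to 7.54 under Random antisense and 7.74 to 8.11 under AβPP antisense. The neuron score of Control 4 was -0.64 over 10 markers, the lowest of the 16 arrays. Within the AβPP antisense group, arrays 1 to 4 had dentate granule cell scores of 0.74, -1.13, 0.88 and -1.06, and pyramidal cell scores of 0.32, -0.69, 0.46 and -0.98. The mean granule cell marker level ranged from 5.96 to 8.48 in that group, 6.62 to 8.10 in Control, 7.53 to 7.93 in untreated SAMP8 and 7.53 to 7.87 under Random antisense. The choroid plexus score lay between -2.68 and -0.62 on these arrays and between -0.066 and 1.55 on the other 12. The striatum score was 1.44 on SAMP8 3 and between -0.57 and 0.47 on all other arrays. On AβPP antisense 4 the beta-actin control probe sets read 3.89 log2 higher at the 3′ end than at the 5′ end of the transcript, a difference that grows with RNA degradation, against 0.84 to 1.60 elsewhere. The part of these features in the results below was not tested except where values without an array are given. In bulk tissue, fewer cells of a type and less RNA per cell cannot be told apart.

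None of the 38 members differed between groups past the threshold, an adjusted p of 0.05 in limma with Benjamini-Hochberg adjustment over 23905 probe sets. The fit took 1 spread per probe set from all 4 groups, although the spread was uneven. The median SD of the members was 0.11 in untreated SAMP8 and 0.50 after AβPP antisense. Each SE and p therefore also reflects arrays outside its comparison, and p-values of different comparisons are not on a like footing. The count of members called was 0 in SAMP8 against Control, where 0.227% of all genes were called, and 0 in Random antisense against SAMP8, where 0% were. It was also 0 in AβPP antisense against Random antisense, against 0.0262% of genes, and 0 in AβPP antisense against untreated SAMP8, against 0.096%. A moderated F test over the 4 groups called 0 members and 0.419% of genes. An unmoderated F test called 0 members, and its share over all genes is not given here. With shares this low, a count of 0 among 38 does not set the members apart from other genes. At an unadjusted p under 0.05, in the same order of comparisons, the members numbered 0, 1, 3 and 4, which compares with 3.77%, 1.04%, 8.83% and 9.99% of all genes. In the F test that count was 7 of 38, against 10.4% of all genes. None of the 79 member probe sets that passed the filter was called in any of the 4 comparisons, in which 0.36%, 0%, 0.0837% and 0.289% of all probe sets were called, as were 0.849% in the F test.

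**Figure D1:**
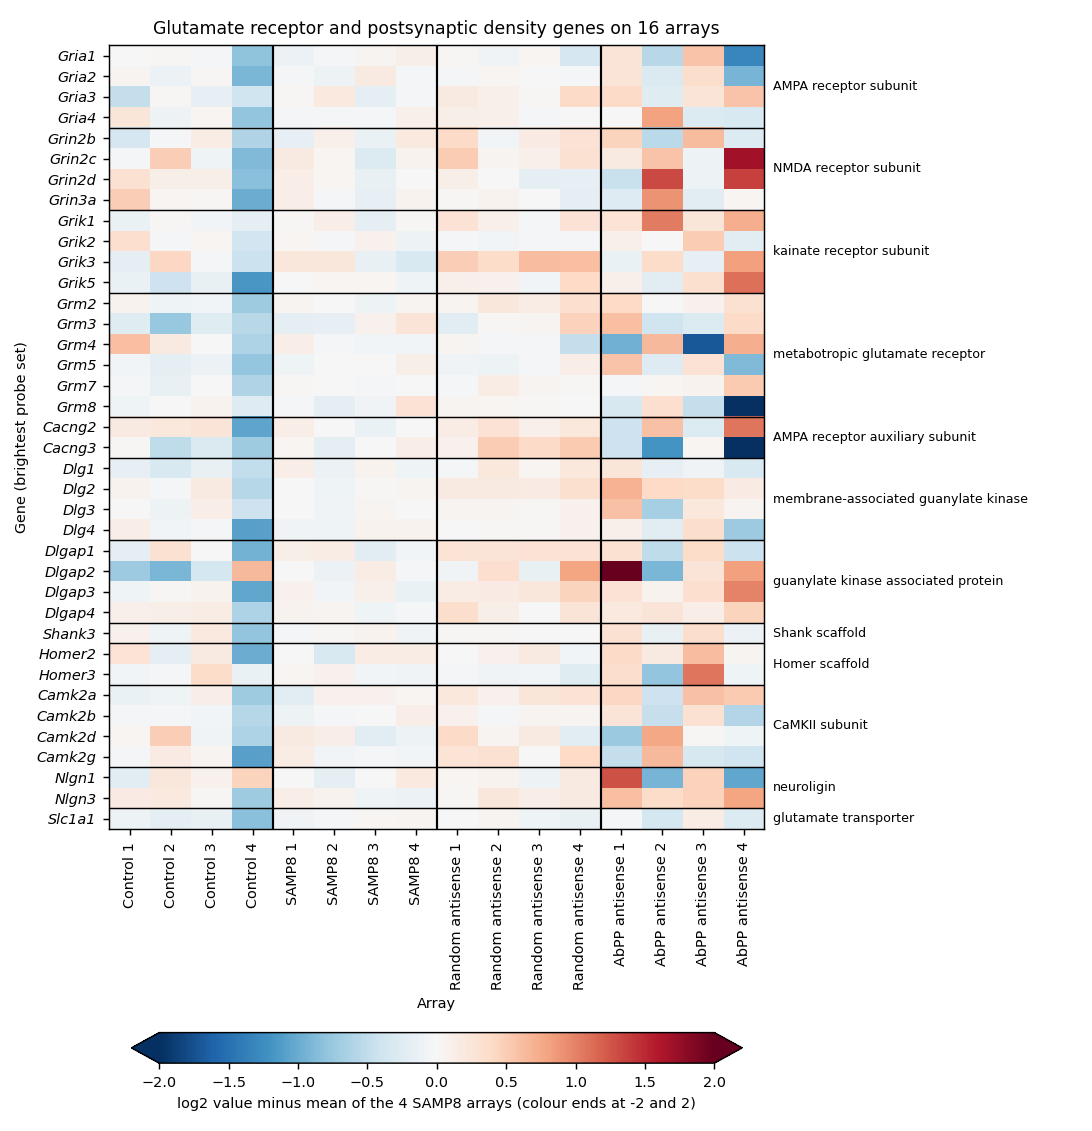
Log2 value of each of the 38 members on each of the 16 arrays, minus that gene's mean over the 4 untreated SAMP8 arrays, with genes ordered by role and colour ending at -2 and 2. Control 4 was below the SAMP8 mean for nearly the whole column, and the AβPP antisense columns held the strongest colours in both directions.

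Between the strains, the members leaned towards higher values in SAMP8, and this lean was absent without 1 Control array. Of 38 members, 35 had a positive difference, SAMP8 minus Control, with a median of 0.17 log2, while 60.2% of all genes were positive with a median of 0.044. Without Control 4, 16 of 38 were positive with a median of -0.011, beside 51.4% of all genes. All 4 AMPA receptor subunits, all 4 kainate receptor subunits, all 4 membrane-associated guanylate kinases, all 4 guanylate kinase associated proteins and all 4 kinase II subunits were among the positive ones with all arrays. Control 4 was the lowest of the 16 arrays for 24 of 38 members and for 31.1% of all genes. The score of the members was -0.69 on Control 4, and between -0.047 and 0.023 on the other Control arrays.

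**Figure D2:**
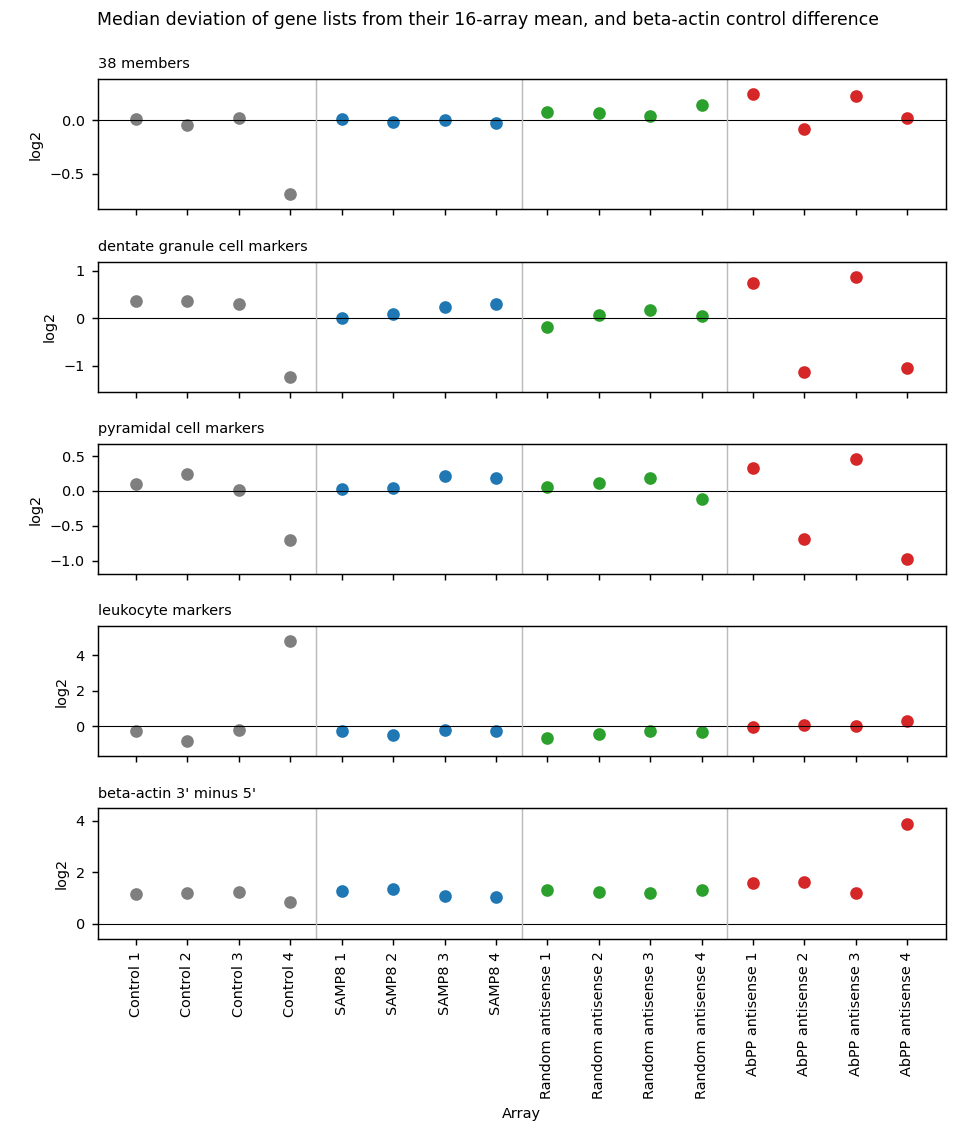
Score of the 38 members, of dentate granule, pyramidal and leukocyte markers, and the beta-actin 3′ minus 5′ difference on each of the 16 arrays, all in log2 on separate vertical scales. Control 4 had -0.69 for the members beside 4.79 for leukocyte markers, and AβPP antisense 1 and 3 had the highest member scores, 0.24 and 0.23.

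Gria2, the subunit that makes AMPA receptors nearly impermeable to calcium, shows the pattern of that array. Its Control arrays read 13.28, 13.11, 13.25 and 12.32, and its SAMP8 arrays 13.19, 13.13, 13.41 and 13.19. Control 1 to 3 lay within or just under the range of SAMP8, and Control 4 lay well below every SAMP8 array. Dlg4, which encodes PSD-95, the main scaffold of the postsynaptic density, read 9.60, 9.42, 9.44 and 8.39 in Control. In SAMP8 it read 9.41, 9.39, 9.54 and 9.54, and again Control 4 alone was lower than all SAMP8 arrays.

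The smallest p-values among members between the strains belonged to Dlg1, Grm3 and Slc1a1. Dlg1, a membrane-associated guanylate kinase that carries AMPA receptors, read 10.89, 10.75, 10.90 and 10.56 in Control and 11.18, 10.93, 11.11 and 10.97 in SAMP8. The difference was 0.27 (SE 0.13, limma adjusted p = 0.999), and the groups did not overlap. Without Control 4 it was 0.20, so this gene kept most of its difference when that array was left out. Grm3, an inhibitory metabotropic receptor also present on astrocytes, read 10.95, 10.44, 10.95 and 10.64 in Control against 11.02, 11.03, 11.28 and 11.45 in SAMP8. Its difference was 0.45 (SE 0.22, limma adjusted p = 0.999), again with no overlap, and the gap between the closest arrays was small.

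Slc1a1, the neuronal transporter that clears glutamate near the synapse, read 10.99, 10.91, 10.94 and 10.25 in Control. In SAMP8 it read 11.01, 11.06, 11.13 and 11.14, for a difference of 0.32 (SE 0.16, limma adjusted p = 0.999). The groups did not overlap, but 3 Control arrays lay close under SAMP8 and Control 4 far below; without it the difference was 0.14. Grik5, a kainate receptor subunit, was the other member without overlap, at 7.97 to 8.99 in Control and 9.04 to 9.18 in SAMP8. These 4 members were all higher in SAMP8 and 0 were lower; over all genes, 2.99% were higher and 1.53% lower without overlap.

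The 3 members with a negative difference between the strains were Nlgn1, Homer3 and Grm4. Nlgn1, a postsynaptic adhesion protein that binds neurexin, read 8.56, 9.00, 8.86 and 9.22 in Control and 8.77, 8.59, 8.76 and 8.97 in SAMP8, a difference of -0.14 (SE 0.38). Homer3, a scaffold that links metabotropic receptors to calcium stores, read 6.29, 6.31, 6.72 and 6.22 against 6.39, 6.44, 6.31 and 6.28, a difference of -0.031 (SE 0.27). Grm4, a presynaptic metabotropic receptor, read 7.15, 6.74, 6.54 and 5.94 against 6.69, 6.53, 6.50 and 6.50, a difference of -0.038 (SE 0.43). All 3 overlapped fully, each with a limma adjusted p of 0.999, and the last 2 took the other sign when single Control arrays were left out.

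Random antisense against untreated SAMP8 gave small differences in the members. Injection and oligonucleotide cannot be told apart in this comparison, as no vehicle-injected group is among these arrays. The median was 0.090 log2 with 29 of 38 positive, beside -0.012 and 46.6% over all genes. All 4 membrane-associated guanylate kinases, all 4 of their associated proteins and all 4 kinase II subunits were positive, the largest at 0.28 for Dlgap1. In all, 4 members, Grik3, Dlg2, Dlgap1 and Dlgap3, were higher in Random antisense without overlap and 0 were lower, where 4.21% of all genes were higher and 4.86% lower.

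Grik3, a kainate receptor subunit of low glutamate affinity, had the smallest p. It read 9.19, 9.18, 8.81 and 8.65 in untreated SAMP8 and 9.45, 9.33, 9.58 and 9.57 after Random antisense. The difference was 0.52 (SE 0.23, unadjusted p = 0.0351, limma adjusted p = 1). All 4 treated arrays lay above the untreated ones, while Control, at 8.77, 9.38, 8.93 and 8.52, and AβPP antisense, at 8.82, 9.33, 8.80 and 9.79, spread across both groups. Dlg2, which encodes PSD-93, differed by 0.21 (SE 0.15), and Grm2, a presynaptic metabotropic receptor, by 0.19 (SE 0.15), both with a limma adjusted p of 1. Grm2 read 7.81, 7.75, 7.64 and 7.80 in untreated SAMP8 and 7.81, 7.98, 7.90 and 8.09 after Random antisense, and the groups met at their edge. The negative differences of smallest p were those of Homer3 at -0.099 (SE 0.27), Slc1a1 at -0.046 (SE 0.16) and Grm4 at -0.12 (SE 0.43), each with a limma adjusted p of 1. Homer3 read 6.32, 6.29, 6.31 and 6.11 after Random antisense, Slc1a1 read 11.09, 11.14, 11.00 and 10.93, and Grm4 read 6.62, 6.51, 6.52 and 6.08. In each of these the fourth Random antisense array was the lowest of its group.

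The start of Grik3, the member of smallest p in the Random antisense comparison, is shown for its base composition. The window runs from 250 bases before to 50 after the RefSeq start on GRCm38.p6, plus strand, and capitals mark the GC box GGGCGG, the core bound by Sp1, on either strand.
Grik3, chr4:125490446-125490745: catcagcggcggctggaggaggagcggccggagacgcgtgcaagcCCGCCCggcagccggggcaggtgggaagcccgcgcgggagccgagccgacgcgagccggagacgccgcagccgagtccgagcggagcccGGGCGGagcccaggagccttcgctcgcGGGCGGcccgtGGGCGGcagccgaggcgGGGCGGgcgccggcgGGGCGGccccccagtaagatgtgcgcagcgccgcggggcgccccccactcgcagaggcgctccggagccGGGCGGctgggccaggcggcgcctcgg
The Grik3 window held 7 of these motifs at 82% G and C. A window was given for 29 of the 43 genes, some with several starts, and 46.5% of their 43 windows held the motif, against 35.7% of 32851 windows of the same length. The motif holds only G and C, and the median G and C content was 60.7% in the member windows and 52.7% in all windows. A match is a description of the letters only.

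**Figure D3:**
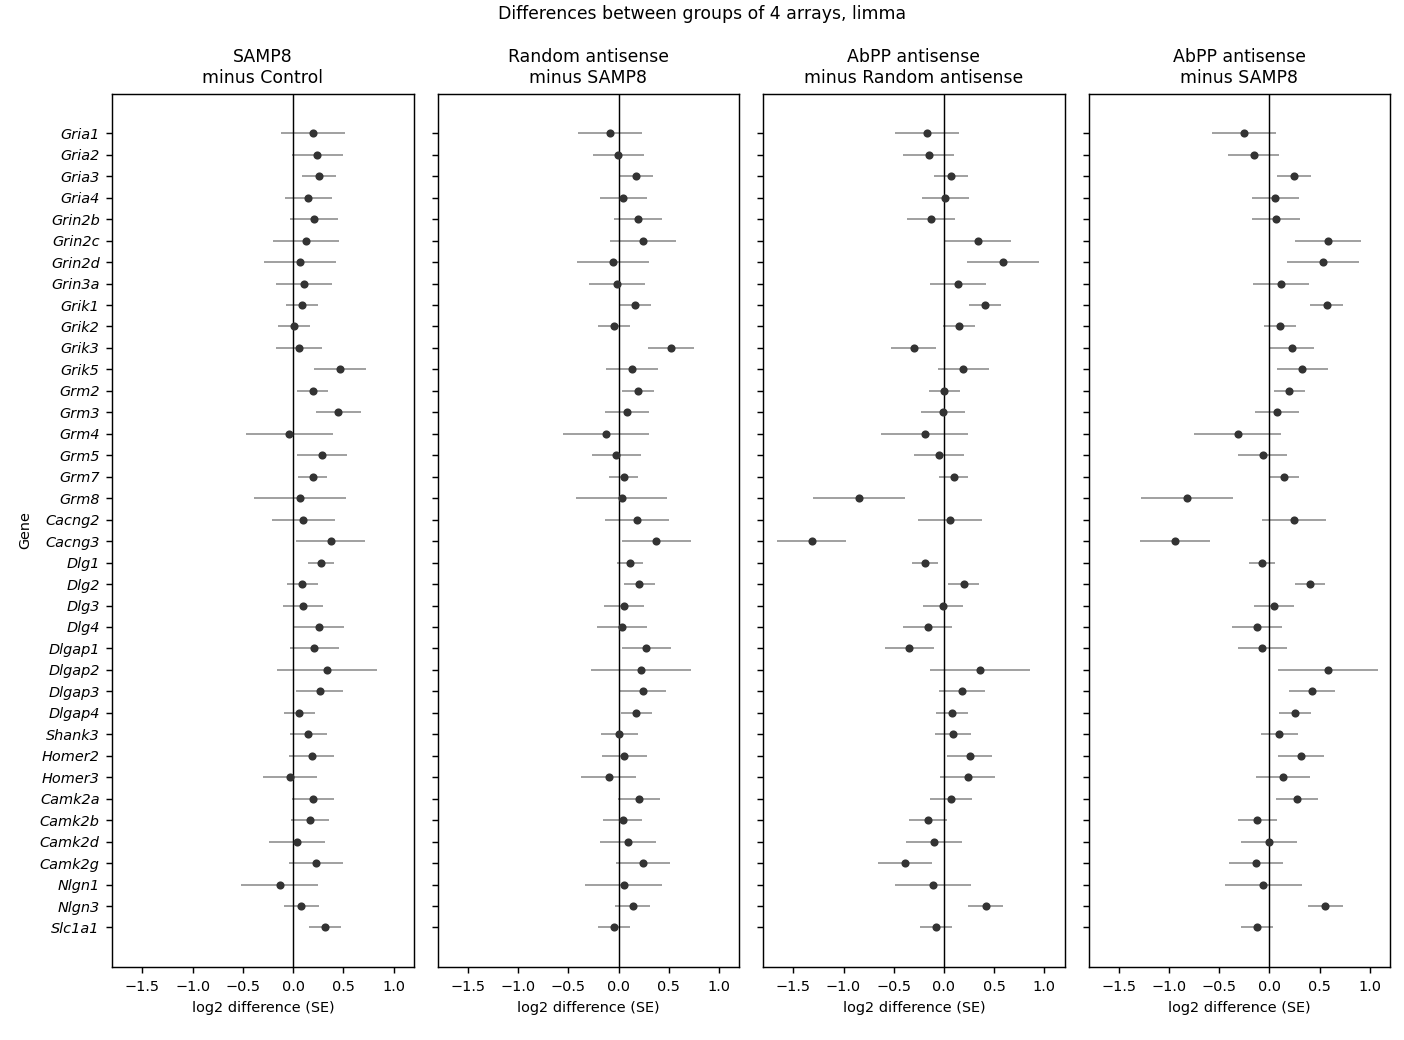
Difference in log2 value of each of the 38 members in the 4 comparisons, with SE from limma as bars. In the strain comparison 35 points lie above 0, and in AβPP antisense against Random antisense 20 do, with Cacng3 the lowest at -1.32.

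After AβPP antisense the members had differences in both directions, and their balance moved with the setting. Against Random antisense the median difference was 0.0081 log2 with 20 of 38 positive, beside 0.040 and 56.8% over all genes; with array weights 26 were positive, at a median of 0.092. Against untreated SAMP8 it was 0.10 with 24 of 38 positive, beside 0.028 and 55.2%; without AβPP antisense 4, 30 of 38 were positive at a median of 0.14. Both comparisons use the same AβPP antisense arrays. Roles split in the first of them: 3 of 4 NMDA and 3 of 4 kainate receptor subunits were positive, against 2 of 6 metabotropic receptors, 1 of 4 membrane-associated guanylate kinases and 1 of 4 kinase II subunits. Without overlap, Nlgn3 was higher and Cacng3 lower than in Random antisense, where 4.68% of all genes were higher and 2.26% lower. Against untreated SAMP8, 4 members (Grik1, Dlg2, Dlgap4 and Nlgn3) were higher without overlap and 0 lower, where 4.05% and 2.88% of all genes were.

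Cacng3, an auxiliary subunit that escorts AMPA receptors to the synapse and slows their closing, had the smallest p of the members against Random antisense. On AβPP antisense arrays 1 to 4 it read 8.37, 7.59, 8.82 and 6.59. Mice given Random antisense had 8.87, 9.29, 9.18 and 9.31. SAMP8 mice without treatment read 8.82, 8.61, 8.80 and 8.92, and Control mice 8.80, 8.28, 8.50 and 8.07. The highest AβPP antisense array, array 3, was just under the lowest Random antisense array, and array 4 was more than 2 log2 under it. The difference from Random antisense was -1.32 (SE 0.35, unadjusted p = 0.00179, limma adjusted p = 0.172), and from untreated SAMP8 -0.94 (SE 0.35, adjusted p = 0.235). Against untreated SAMP8 the groups overlapped at array 3.

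The call on Cacng3 turned on single arrays. Without AβPP antisense 3 the difference from Random antisense was -1.64 and passed, with a limma adjusted p of 0.0119, within 0.0119 to 0.573 over 27 alternatives. From untreated SAMP8 it was then -1.27 (adjusted p = 0.0309, within 0.0309 to 0.753). With that array left out, calls over all probe sets rose from 20 to 895 against Random antisense. Against untreated SAMP8 they rose from 69 to 1286. Without AβPP antisense 4 the differences were -0.90 and -0.52, and with the beta-actin measure entered as a covariate they were -0.76 and -0.32, none past the threshold. With only the 8 arrays compared in the fit, the limma adjusted p against Random antisense was 0.573. Cacng3 has 1 probe set, so no second reading of the gene was available here. Cacng2, the related auxiliary subunit stargazin, read 8.72, 9.72, 8.86 and 10.20 on the AβPP antisense arrays and 9.28, 9.41, 9.24 and 9.34 after Random antisense. Its arrays 2 and 4 were the highest of the group, the same arrays on which Cacng3 was lowest.

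Grik1, a kainate receptor subunit prominent in hippocampal interneurons, was the member of smallest p against untreated SAMP8. It read 8.27, 9.03, 8.23 and 8.73 after AβPP antisense and 8.02, 8.13, 7.81 and 8.01 in untreated SAMP8. Random antisense arrays read 8.28, 8.09, 7.96 and 8.29, and Control arrays 7.86, 8.01, 7.93 and 7.81. AβPP antisense arrays 2 and 4 stood above every other array, whereas arrays 1 and 3 lay within reach of Random antisense. The difference from untreated SAMP8 was 0.57 (SE 0.16, unadjusted p = 0.0031, limma adjusted p = 0.144), and from Random antisense 0.41 (SE 0.16, adjusted p = 0.337), the latter 0.25 without AβPP antisense 2. Without AβPP antisense 3 the difference from untreated SAMP8 was 0.68 and passed (adjusted p = 0.0279, within 0.0279 to 0.496 over 27 alternatives). In that setting 1286 probe sets were called in all, beside 69 with all arrays. The second probe set of Grik1 differed by 0.55 from untreated SAMP8 (limma adjusted p = 0.59). On AβPP antisense arrays 1 to 4 it read 5.50, 7.72, 6.84 and 5.59, against 5.67 to 5.94 in untreated SAMP8. Arrays 1 and 4 were thus below that range and arrays 2 and 3 above it, unlike the brightest probe set.

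Nlgn3, a neuroligin found at excitatory and inhibitory synapses, read 8.87, 8.63, 8.73 and 9.05 after AβPP antisense. Random antisense arrays gave 8.29, 8.49, 8.39 and 8.45, untreated SAMP8 arrays 8.39, 8.33, 8.18 and 8.15, and Control arrays 8.43, 8.46, 8.28 and 7.55. The 4 AβPP antisense arrays were the highest 4 of all 16. The difference was 0.41 (SE 0.17, limma adjusted p = 0.364) from Random antisense and 0.56 (SE 0.17, adjusted p = 0.175) from untreated SAMP8. Without Control 4 the latter passed with a limma adjusted p of 0.0355. Without Control 4 and AβPP antisense 4 it passed with 0.0274, within 0.0274 to 0.87 over 27 alternatives. What moved it past the threshold was not tested. In these settings 139 and 407 probe sets were called in all against untreated SAMP8, beside 69 with all arrays. The 2 other probe sets of Nlgn3 differed from untreated SAMP8 by -0.16 and -0.73, against the direction of the brightest one.

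Dlg2 read 11.50, 11.20, 11.17 and 10.96 after AβPP antisense. Random antisense arrays gave 10.98, 10.98, 10.97 and 11.12, and untreated SAMP8 arrays 10.81, 10.71, 10.82 and 10.86. Control read 10.87, 10.76, 10.98 and 10.23. AβPP antisense lay above untreated SAMP8 on all 4 arrays and overlapped Random antisense on array 4. The difference from untreated SAMP8 was 0.40 (SE 0.15, limma adjusted p = 0.243), and 0.49 without Control 4 and AβPP antisense 4, where it passed (adjusted p = 0.0274, within 0.0274 to 0.487). Without those arrays 407 probe sets were called in all, beside 69 with all arrays. The other probe sets of Dlg2 went the opposite way, at -0.62 and -1.78.

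**Figure D4:**
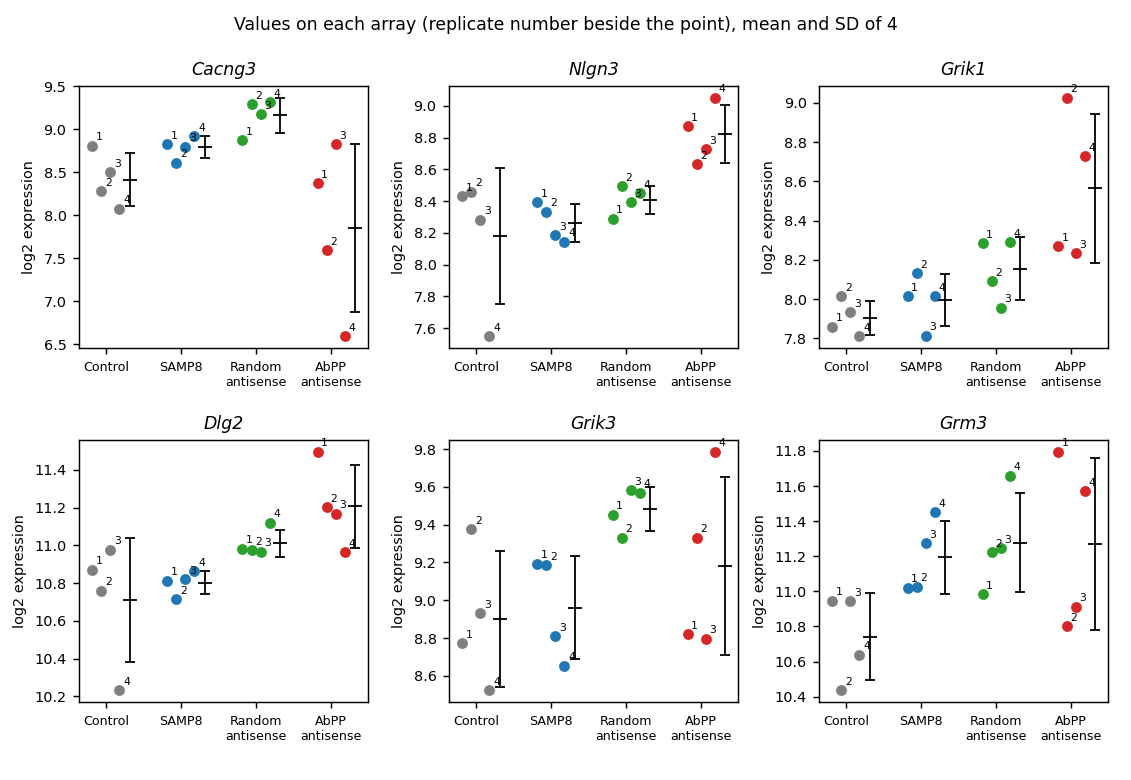
Log2 value on each array, by group, for Cacng3, Nlgn3, Grik1, Dlg2, Grik3 and Grm3, with the mean and SD of 4 beside the points. The vertical scale differs between genes. Nlgn3 is above 8.6 on all 4 AβPP antisense arrays, and Cacng3 spreads from 6.59 to 8.82 there.

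Several receptors had wide differences that rested on 1 or 2 AβPP antisense arrays. Grm8, a presynaptic metabotropic receptor, read 5.76, 6.42, 5.61 and 3.25 on these arrays, against 6.07 to 6.14 after Random antisense and 5.89 to 6.36 in untreated SAMP8. Its differences were -0.85 and -0.82 (SE 0.46, limma adjusted p = 0.472 and 0.418), and -0.18 and -0.15 without AβPP antisense 4. Grin2d, an NMDA receptor subunit typical of interneurons, read 6.14, 7.91, 6.48 and 7.96, against 6.39 to 6.71 after Random antisense, for a difference of 0.59 (SE 0.36, adjusted p = 0.531). It was 0.92 without AβPP antisense 1, 0.33 without array 2, 0.31 without array 4, 0.16 with the beta-actin covariate and 0.093 with array weights. Arrays 2 and 4 were above all Random antisense arrays and array 1 below them. Grin2c, another NMDA receptor subunit, read 7.21, 7.61, 6.94 and 8.72, against 7.10 to 7.54 after Random antisense, with arrays 2 and 4 above that range and array 3 below it.

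Gria1, the AMPA receptor subunit delivered to synapses during potentiation, read 12.30, 11.48, 12.61 and 10.73 after AβPP antisense, against 11.91 to 12.15 in untreated SAMP8. Arrays 1 and 3 were above that range and arrays 2 and 4 below it. The difference of -0.25 (SE 0.32, limma adjusted p = 0.741) was 0.094 without AβPP antisense 4, -0.53 without array 3, -0.43 without array 1 and -0.16 without array 2. The same split was seen in some other members: Grm5, the receptor that drives calcium release, read 12.20, 11.39, 11.93 and 10.75, and Camk2b, a kinase II subunit that binds actin, read 12.23, 11.51, 12.26 and 11.38. Other members ran the opposite way. Grm4 read 5.60, 7.20, 4.87 and 7.28, against 6.08 to 6.62 after Random antisense, with arrays 2 and 4 above that range and arrays 1 and 3 below it. In Cacng2, Grin2d and Grik1, too, arrays 2 and 4 were above arrays 1 and 3. Gria4 had the reverse order only in part, with 10.86 on array 2 and 10.06, 9.79 and 9.74 on arrays 1, 3 and 4. Dlg1 read 11.28, 10.88, 10.98 and 10.74, a difference from Random antisense of -0.19 (SE 0.13, adjusted p = 0.589), which was -0.29 without AβPP antisense 1 and -0.11 without AβPP antisense 4. Arrays 2 and 4 are those with the low granule and pyramidal cell marker scores given above, and arrays 1 and 3 those with the lowest thalamus marker scores. Whether any of those scores play a part in these values was not tested.

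The spread within groups was uneven. The median SD of the members over 4 arrays was 0.50 log2 after AβPP antisense and 0.36 in Control, against 0.11 in untreated SAMP8 and 0.12 after Random antisense. Over all genes the medians were 0.34, 0.28, 0.11 and 0.11 in that order. The largest SD of a member fell in AβPP antisense for 25 of 38 and in Control for the other 13, shares of 65.8% and 34.2% beside 57.5% and 38.7% of all genes. Without Control 4 the Control median was 0.13, close to that of SAMP8, and without AβPP antisense 4 that group still had 0.43. AβPP antisense 3 was the highest of the 16 arrays for 12 of 38 members, but for 6% of all genes, and AβPP antisense 4 was the highest for 11 and the lowest for 7, beside 25.5% and 18.7% of all genes.

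Probe sets of 1 gene read the AβPP antisense arrays differently. Of the members, 22 had more than 1 probe set past the filter. The deviation of each array from the Random antisense mean was taken per probe set, and the range of these deviations among the probe sets of a gene had medians of 0.70, 0.79, 0.21 and 1.98 log2 on AβPP antisense arrays 1 to 4. The largest such range on a Random antisense array had a median of 0.26. Of the 79 probe sets, 14 lay more than 2 log2 below the Random antisense mean on array 4, 5 on array 2, 1 on array 1 and 0 on array 3. The array with the closest agreement, array 3, was also the one with the lowest beta-actin 3′ to 5′ difference of the group, at 1.21.

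Dlg4 and Slc1a1 show this in their values. The brightest probe set of Dlg4 read 9.57, 9.24, 9.82 and 8.74 on AβPP antisense arrays 1 to 4, and its second one 8.68, 8.79, 10.01 and 4.11, against 9.35 to 9.58 on the second one after Random antisense. For Slc1a1 the brightest read 11.05, 10.73, 11.24 and 10.82, and the dimmest 6.39, 3.65, 7.56 and 2.44, where Random antisense read 6.60 to 7.38. The brightest probe sets stayed nearer to Random antisense on arrays 2 and 4 than the others. Camk2a, the kinase II subunit whose activation marks potentiated synapses, had 5 probe sets past the filter. Its brightest read 12.14, 11.31, 12.32 and 12.24, and another probe set read 8.10, 4.20, 8.13 and 3.36, against 7.45 to 7.83 after Random antisense. With the mean of all probe sets standing for a gene, the median difference of the 38 members from Random antisense was -0.13 with 14 positive, in place of 0.0081 with 20, and against untreated SAMP8 it was -0.033 with 18 positive.

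**Figure D5:**
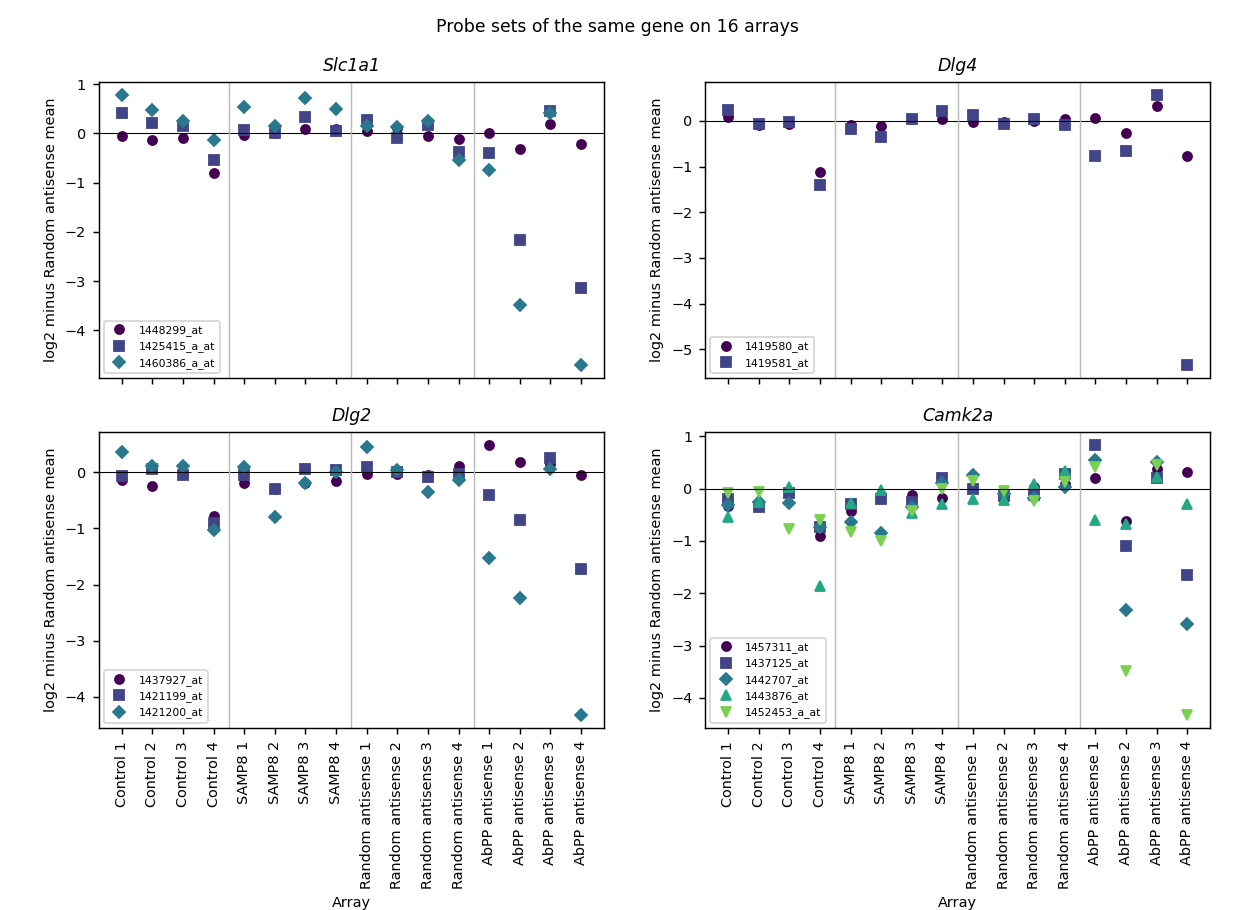
Log2 value of each probe set on the 16 arrays, minus its mean on the 4 Random antisense arrays, for Slc1a1, Dlg4, Dlg2 and Camk2a, with 1 symbol per probe set. The points of a gene lie nearer each other on most Control, SAMP8 and Random antisense arrays than on AβPP antisense 2 and 4, and the second probe set of Dlg4, which reads 4.11 on array 4, is the lowest.

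Other genes of the glutamatergic synapse were taken from a list of 70, of which 56 passed the filter. Of these, 0 were called in each of the 4 comparisons, and 0 in the F test. At an unadjusted p under 0.05 there were 0, 1, 4 and 4 in the order used above, beside 3.77%, 1.04%, 8.83% and 9.99% of all genes. The median difference between the strains was 0.17 with 47 of 56 positive, beside 0.044 and 60.2% over all genes. The part of Control 4 in it was not tested for this list. For Random antisense against SAMP8 the median was 0.093 with 41 positive, beside -0.012 and 46.6%. For AβPP antisense against Random antisense it was -0.13 with 21 positive, beside 0.040 and 56.8%. Against untreated SAMP8 it was -0.05 with 23 positive, beside 0.028 and 55.2%. Between the strains, Arc, an activity-induced gene that drives AMPA receptor removal, differed by 1.42 and Akap5, which anchors kinases to the receptors, by 0.43, both with a limma adjusted p of 0.999. The negative ones of smallest p were Gsg1l, an AMPA receptor auxiliary subunit, at -0.25 and Grik4, a kainate receptor subunit, at -0.13.

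After Random antisense, Lrrtm3, a synaptic adhesion protein, differed from untreated SAMP8 by 0.37 and Slc17a7, the vesicular glutamate transporter of hippocampal principal cells, by 0.55. Cacng5, another AMPA receptor auxiliary subunit, differed by -0.49 and Arc by -0.71, all 4 with a limma adjusted p of 1. After AβPP antisense, Grip1, a scaffold of AMPA receptors, was 0.57 above Random antisense (adjusted p = 0.354) and 0.61 above untreated SAMP8 (adjusted p = 0.249). Lrrc4b, an adhesion protein, was at -0.84 and -0.65 in the same comparisons (adjusted p = 0.31 and 0.35). Nlgn2, the neuroligin of inhibitory synapses, stood at 0.40 and Lrrtm3 at -0.40 against Random antisense, and Gsg1l at 0.48 and Neto2, a kainate receptor auxiliary subunit, at -0.41 against untreated SAMP8, none past the threshold.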

How the data were processed

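Members and lists were chosen with earlier results of these data known. The log2 values were used as deposited; the authors made them with GCRMA, per the submitters' processing notes (version: not given in the sources used here). The scanned intensities were not used here. GCRMA gives 1 normalized value per probe set, with low values compressed towards a floor. Groups came from sample titles. For Random antisense 1 the treatment label says none, against its title, source and description; it was kept in that group, and the other reading was an alternative.

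Of 45101 probe sets, 64 controls were removed and 23905 were over 4 log2 on at least 4 arrays. GEO's platform annotation gives 1 symbol to 34945. A one-way model of 4 groups was fitted in limma 3.58.1 (R 4.3.3; residual degrees of freedom 12, prior 2.63). Its p-values were adjusted by Benjamini-Hochberg, with a threshold of 0.05, and the fit was tested on simulated data. Lists have counts and medians only. Named with all values were, per comparison, the 3 members of smallest p in each direction, and of the other synaptic genes the 2; Gria2, Gria4, Grm5, Grin2c, Cacng2, Dlg4, Camk2a, Camk2b and the members without overlap were picked after their values were seen. Alternatives changed the filter, arrays, probe set, scaling, covariates, weights and variance model. Promoters are from RefSeq (GRCm38.p6). Mice are separate animals, and the labels give no batch.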

Additional observations from a re-analysis of the deposited data

Results flagged for a closer look

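In groups of 4 arrays, single arrays were set apart by Dixon's test for some of the values reported. Slc1a1 read 10.2 on Control 4, below its group, and Gria1 read 11.2 there, also low. The score of the members on Control 4, at -0.691, was low as well. Dlg2 read 11.1 on Random antisense 4 and Grm4 read 6.69 on SAMP8 1, each above its group. Homer3 read 6.11 on Random antisense 4, below its group.

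Chance flags about 1 in 20 groups. Over the 152 combinations of a member and a group, 14 held an array set apart, 8 of them Control 4. The others were SAMP8 1 and Random antisense 4 with 2 each, and SAMP8 4 and AβPP antisense 2 with 1 each.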

How the results depend on the processing

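The 27 alternatives left 0 members called between the strains and in Random antisense against SAMP8. The shares over all genes in those settings are not given here, so these counts say little about the members. Members called in AβPP antisense against Random antisense numbered 0 to 1 when single arrays were left out (1, Cacng3, without AβPP antisense 3). Against untreated SAMP8 they numbered 0 to 2, namely 1 without Control 4 (Nlgn3) and 2 without AβPP antisense 3 (Grik1 and Cacng3), and 2 without both Control 4 and AβPP antisense 4 (Dlg2 and Nlgn3). In the F test they numbered 0 to 2, the 2 without AβPP antisense 3. Calls over all probe sets rose in the same settings. Without AβPP antisense 3 these calls numbered 895 against Random antisense, 1286 against untreated SAMP8 and 962 in the F test. With all arrays they numbered 20, 69 and 203. Against untreated SAMP8 they numbered 139 without Control 4 and 407 without both arrays. Other synaptic genes called against untreated SAMP8 numbered 1 without both arrays (Slc1a3) and 1 with array weights (Slc17a6). The share over all genes with array weights is not given here. The median difference of the members was -0.13 from Random antisense and -0.033 from untreated SAMP8 with all probe sets averaged, and 0.056 for Random antisense minus SAMP8 with Random antisense 1 taken as untreated. With array weights the strain median was 4.89e-05, with 19 of 38 positive. The cause of these shifts was not tested.

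Signs turned for members that were not called. Averaging probe sets gave -0.66 for Dlg2 and -0.11 for Nlgn3 against SAMP8, and -0.23 for Nlgn3 against Random antisense. Gria1 against SAMP8 was -0.53 to 0.094 with single arrays left out (0.094 without AβPP antisense 4), 0.094 without both arrays, 0.24 with the beta-actin covariate and 0.22 with array weights, and Grm8 was 0.093 with that covariate. Between the strains, with single arrays left out, Grm4 was -0.26 to 0.15 (0.15 and 0.010 without Control 1 or 2), and Homer3 -0.087 to 0.080 (the latter without Control 3). In all, 972 recomputed values kept their count, kept their direction and side of the threshold, or, for medians, stayed within the replicate spread. Many differences among them could not change, since filters and arrays outside a comparison do not enter its group means. No member was called with all arrays, so keeping a side meant staying uncalled, and the total does not measure robustness. The 972 include values given above, among them the strain medians of -0.011 without Control 4 and 4.89e-05 with array weights. For the strain median that spread was 0.24 log2, the SD of the member score within the groups compared, Control 4 included.

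With the replicate number as a block, 0 members were called in each comparison, and the share over all genes is not given here. The adjusted p of limma was then 0.198 for Cacng3 against Random antisense and 0.143 for Grik1 against SAMP8. Deviations of arrays with the same number had a median correlation of 0.037 (24 pairs, -0.27 to 0.24), and those with different numbers -0.0077 (72 pairs, -0.28 to 0.32), so the numbers were not taken to pair mice.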
